A study of Homo sapiens with 9 samples.

Results

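The genes of the 26S proteasome, its activators and its assembly factors were followed in A549 cells, a human lung adenocarcinoma line, after silencing of REV1, a polymerase of translesion DNA synthesis. Members were the genes whose symbol is PSM followed by a letter from A to G and a number. The files hold 46 of them among 18143 genes. Cells received scramble siRNA or 1 of 2 siRNAs against REV1, named SiREV1#1 and SiREV1#2, and RNA was taken 48 h after transfection. Each of the 3 groups (Scramble, SiREV1#1 and SiREV1#2) has 3 replicates, numbered 1 to 3 in the labels, and both siRNA groups are compared with the same scramble libraries. The knockdown was transient, in 1 cell line, and no source says whether same-numbered libraries were prepared together. The study states that its in vitro experiments were repeated independently, and the labels do not say that the libraries came from separate cultures, so p-values measure only the spread between these libraries.

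The proteasome degrades proteins tagged with ubiquitin. Its core is a barrel of alpha rings (PSMA genes) around beta rings (PSMB genes), and PSMB5, PSMB6 and PSMB7 carry the catalytic sites. In the immunoproteasome these are replaced by PSMB8, PSMB9 and PSMB10, which interferon induces. A regulatory particle caps the barrel: its base holds a ring of ATPases (PSMC genes) that unfold the substrate, together with PSMD1, PSMD2 and PSMD4, and its lid holds the other PSMD subunits, among them the deubiquitinase PSMD14. PSME genes encode alternative caps, PSMF1 an inhibitor, and PSMG1 to PSMG4 with PSMD5, PSMD9 and PSMD10 chaperones of assembly. The factor NFE2L1 is known to raise transcription of proteasome genes together, through antioxidant response elements in their promoters, when proteasome activity falls.

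Because that element is a known shared control of these genes, it was searched for in promoters of RefSeq (GRCh38.p14, 250 bases before to 50 after the start site), as TGAC, any 3 bases and GC, on both strands. Entries were found for 40 members, and 15 of them (37.5%) held the letters, against 16.1% of 27305 genes with a promoter entry. PSMA7, PSMB1, PSMB6, PSMB7, PSMD4 and PSMG3 had no entry. A match is a description of the letters and not a bound site. Windows around the element are shown 5′ to 3′ on the strand of the gene for 6 members described below, 1 or 2 from each main group, with the element in capitals. In PSMB9 and PSMC5 the element lies on the opposite strand and so reads GC, 3 bases and GTCA.
PSMA4 (chr15:78540650-78540678, 126 bases before the start): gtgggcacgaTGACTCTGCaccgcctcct
PSMB9 (chr6:32854034-32854062, 148 bases before the start): gggcggggctGCCTCGTCActtgtctcgg
PSMC5 (chr17:63827654-63827682, 57 bases before the start): gaccggatctGCTGTGTCAgcgccgccct
PSMD1 (chr2:231056896-231056916, 40 bases after the start): aggaggcgacTGACTGAGCag
PSMD12 (chr17:67366724-67366752, minus strand, 165 bases before the start): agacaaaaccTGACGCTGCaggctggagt
PSME2 (chr14:24146767-24146795, minus strand, 175 bases before the start): ccctggactgTGACCCAGCcagcaccgcc

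Values are given as FPKM, the fragments of a gene scaled to its length and to the size of the library, so that levels of different genes can be compared. Total counts were between 13059082 and 20166451 in the 8 libraries that could be counted. The count column of SiREV1#2 replicate 3 repeats that of replicate 2, so tests on counts hold 8 libraries and FPKM values all 9. In each group replicate 1 stood apart from replicates 2 and 3, and SiREV1#1 replicate 1 was also the library with the fewest counts, with 14.5% of them in its 10 most abundant genes against 5.82% to 11.3% elsewhere. REV1, the targeted gene, was at 7.23, 7.9 and 8.44 FPKM in scramble, at 2.6, 2.92 and 3.36 after SiREV1#1 and at 3.62, 3.36 and 3.18 after SiREV1#2, so both siRNA groups lay below scramble in every library. Of the 5 epithelial markers, KRT8 was at 1372 FPKM or more and KRT18 at 2491 or more in each library. CDH1 was at 6.32 to 43.8, and KRT19 and EPCAM were at most 1.34 and 2.38. KRT8 and CDH1 were higher in replicate 1, by 1.17 and 1.34 on the log2 scale (edgeR adjusted p = 0.0018 and 0.00161). So were the low genes KRT19 and EPCAM, by 2.375 and 0.794 (edgeR adjusted p = 0.00051 and 0.00846), while KRT18 did not pass (0.333, edgeR adjusted p = 0.104). CDH1 was also higher after SiREV1#1 than after SiREV1#2 with the replicate block, by 1.43 (edgeR adjusted p = 0.0296). Their part in the results below was not tested. The summed level of endothelial markers was at most 0.14 FPKM and that of fibroblast markers at most 1.77. Of the blood markers, PTPRC was at most 0.47 FPKM, and CD14 was at 5.04 to 5.89 in the replicate 1 libraries against at most 0.43 in the other 6. CDKN2A, known to be deleted in A549, was at 0.07 to 0.73 FPKM.

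All 46 members were above 0 FPKM in every library and passed the filter on low counts. Mean levels in scramble ran from 4.02 ± 0.0493 FPKM for PSMB8 to 230.9 ± 27.6 for the alpha subunit PSMA6 (SD, n = 3). After PSMA6 came PSMB4 (197 ± 15.2), PSMA4 (185 ± 8.05) and PSMD8 (181 ± 7.52), which did not differ from each other beyond their spread. The low end held the inducible subunits and PSMG4, with PSMB9 at 8.39 ± 3.72, PSMG4 at 13.1 ± 2.15 and PSMB10 at 16.4 ± 1.08. Of the genes with a mean FPKM over 1, 20.6% lay below PSMB8 and 97.5% below PSMA6. All members together held 0.728%, 0.744% and 0.740% of the FPKM in scramble replicates 1, 2 and 3. They held 0.493%, 0.710% and 0.700% after SiREV1#1 and 0.732%, 0.754% and 0.768% after SiREV1#2. SiREV1#1 replicate 1 was thus low, and the other 8 libraries lay close together. Bulk RNA does not tell fewer cells with a transcript from less RNA per cell.

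No proteasome gene passed the threshold after either siRNA in the fit without a block. In edgeR's quasi-likelihood fit, 0 of 46 members had an adjusted p under 0.05 after SiREV1#1, where 0.296% of all 14205 genes tested passed, and 0 of 46 after SiREV1#2, where 0.0% passed. REV1 itself passed there after SiREV1#1 (log2 fold change -1.26, edgeR adjusted p = 0.042). After SiREV1#2 it did not (-1.33, edgeR adjusted p = 0.154), though it passed with the replicate block (edgeR adjusted p = 0.00989). The fit without a block thus missed the silenced gene for SiREV1#2, and a 0 from it does not show that members were unchanged. At an unadjusted p under 0.05 there were 1 member after SiREV1#1 and 0 after SiREV1#2, against 1385 and 778 of all genes. The median log2 fold change over the members was -0.11 after SiREV1#1 and 0.03 after SiREV1#2, against 0.002 and 0.021 over all genes tested. The median after SiREV1#1 rested on replicate 1 of that group, and without that library it was -0.03.

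With the replicate number as a block, 2 of 46 members fell after SiREV1#1, PSMA1 and PSMD12, where 12.3% of all genes passed. After SiREV1#2 the same fit called 0 members where 1.91% of all genes passed. At an unadjusted p under 0.05 there were 4 members, a count that cannot be set against the 1.91%, which is at the adjusted threshold. In limma-trend on log2(FPKM + 1) with the block, which uses all 9 libraries, 3 members fell after SiREV1#1 (PSMA1, PSMD12 and PSMD1) where 19.7% of genes passed, and 1 fell after SiREV1#2 (PSMD11) where 11.3% passed. In an edgeR fit of replicates 2 and 3 only, chosen after the data were seen and with 1 SiREV1#2 library that is assumed to vary like the others, 11 members changed after SiREV1#1, 4 up and 7 down, where 46.5% of genes passed. In that fit 19 changed after SiREV1#2, 7 up and 12 down, where 38.4% passed. The last was the only one of these fits in which the share of members called was above that of all genes, at 41.3% of members.

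**Figure D1:**
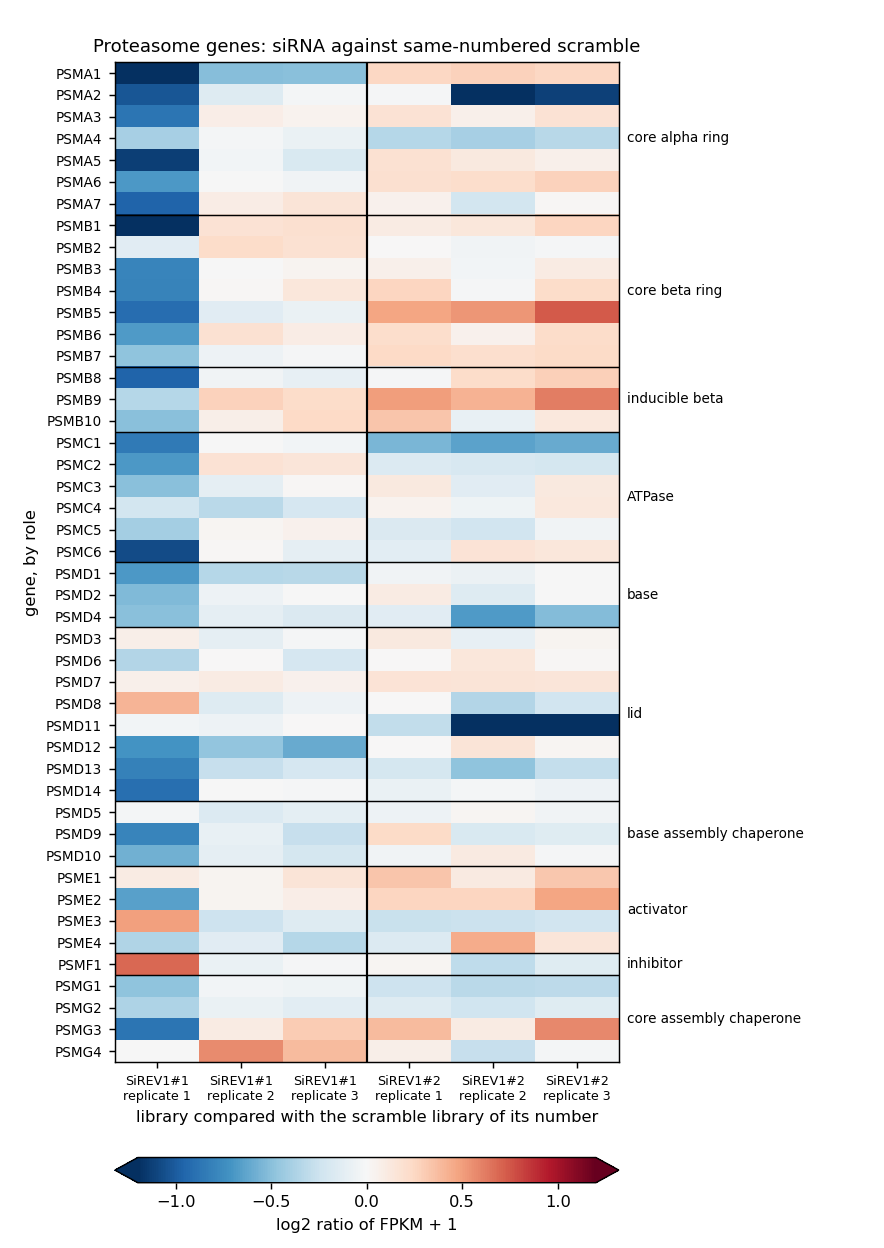
Log2 ratio of FPKM + 1 between each siRNA library and the scramble library of the same number, for 46 genes in rows grouped by role and 6 libraries in columns, with blue for lower and red for higher, and pointed ends of the colour bar where ratios run past it. The first column, SiREV1#1 replicate 1, is blue for 40 genes, and the rows of PSMA1 and PSMD12 are blue in all 3 SiREV1#1 columns.

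Within same-numbered pairs, 22 of 46 members (47.8%) were lower after SiREV1#1 in all 3 pairs, where 35.5% of the 11429 genes with a mean FPKM over 1 were, and 2 members (4.35%), the lid subunit PSMD7 and the activator PSME1, were higher, where 19.6% were. After SiREV1#2, 13 members (28.3%) were lower in all 3 pairs against 29.7% of genes, and 14 (30.4%) were higher against 25.9%. The map of pair ratios shows that the pairs of SiREV1#1 differed in size. The median log2 ratio over the members was -0.55 in replicate 1, where 40 members were lower, and -0.03 and -0.02 in replicates 2 and 3, where 29 and 28 were lower. Over all genes with a mean FPKM over 1 the medians were -0.18, -0.03 and -0.02. After SiREV1#2 the member medians were 0.04, -0.04 and 0.02. Whether the deviation of SiREV1#1 replicate 1 differs from that of the other pairs was not tested, since it is 1 library.

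Of the alpha ring, 7 of 7 genes were lower in SiREV1#1 replicate 1 (median log2 ratio -0.96), and the median was -0.03 in replicate 2 and -0.04 in replicate 3. PSMA1, on chromosome 11 (14504874 to 14643635, minus strand, GENCODE 29 on GRCh38), was at 112, 103 and 102 FPKM in scramble replicates 1, 2 and 3, at 47.8, 71.6 and 72.2 after SiREV1#1 and at 134, 125 and 122 after SiREV1#2. Every SiREV1#1 library lay below, and every SiREV1#2 library above, the scramble libraries. After SiREV1#1 its log2 fold change was -0.66 in edgeR without a block (standard error, SE, 0.18, adjusted p = 0.246) and -0.66 with it (SE 0.15, edgeR adjusted p = 0.0301). In replicates 2 and 3 only it was -0.50 (edgeR adjusted p = 3.39e-05). For SiREV1#2 it was 0.33 without the block (SE 0.20, edgeR adjusted p = 1). Of the 50-base stretches of its transcripts, 19.6% are found in another gene too, so its reads could be split by the counting.

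PSMA2 was at 77.7, 57.7 and 52.1 FPKM in scramble, at 37.6, 51.9 and 51.3 after SiREV1#1 and at 76.7, 22.7 and 23.4 after SiREV1#2. The lowest values of this gene were thus replicates 2 and 3 of SiREV1#2, while replicate 1 of that group was level with scramble, and the log2 fold change with the block was -0.47 (SE 0.40, edgeR adjusted p = 0.609). In the fit of replicates 2 and 3 only it was -1.27 (SE 0.10, edgeR adjusted p = 1.15e-06). PSMA2 shares 20.0% of its exonic bases with genes on the opposite strand, among them MRPL32, and whether counting used strand is not given in the sources used here. PSMA4 was at 194, 183 and 179 FPKM in scramble, at 147, 179.9 and 169 after SiREV1#1 and at 153, 138 and 141 after SiREV1#2. All SiREV1#2 libraries lay below scramble, with a log2 fold change of -0.32 without a block (SE 0.17, edgeR adjusted p = 1). PSMA5, at 23.5, 19 and 19.4 FPKM in scramble, had 10.2, 18.6 and 17 after SiREV1#1 and 26.8, 20.7 and 20.2 after SiREV1#2. For PSMA6 the levels were 199, 248 and 245 FPKM in scramble, 123, 248 and 238 after SiREV1#1 and 228, 288 and 298 after SiREV1#2. Both were lower in every pair of SiREV1#1 and higher in every pair of SiREV1#2, with differences in replicates 2 and 3 of SiREV1#1 that were small beside that in replicate 1. PSMA7 ranged from 84.3 to 171 FPKM, with its lowest value in SiREV1#1 replicate 1.

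**Figure D2:**
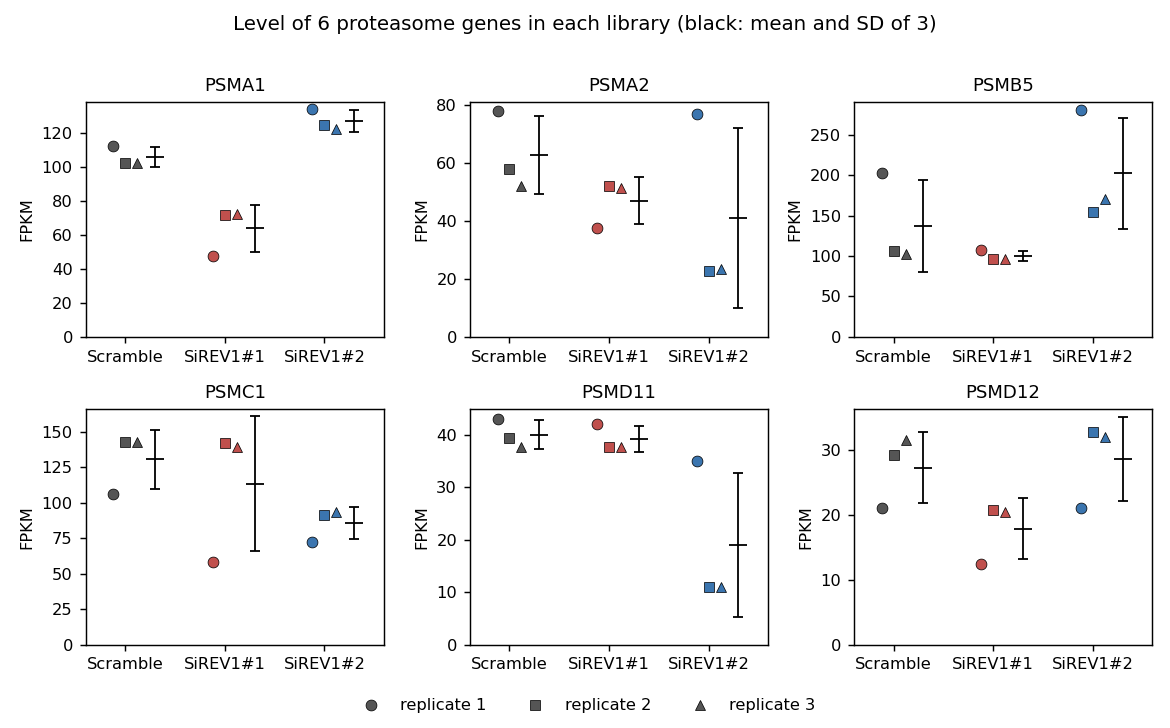
FPKM of PSMA1, PSMA2, PSMB5, PSMC1, PSMD11 and PSMD12 in each library, with a symbol for each replicate number and black bars for the mean and SD of the 3 libraries of a group, on axes that start at 0. The groups of PSMA1 do not overlap, while PSMA2 and PSMD11 are lowest in replicates 2 and 3 of SiREV1#2. PSMA2 in SiREV1#1 replicate 1 (37.6 FPKM) and PSMD11 in SiREV1#2 replicate 1 (34.9 FPKM) also lie below the scramble libraries.

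Among the 7 constitutive beta genes, the median log2 ratio in SiREV1#1 was -0.79 in replicate 1 and 0.02 and 0.09 in replicates 2 and 3. In SiREV1#2 it was 0.21, 0.05 and 0.22. PSMB5, which carries the chymotrypsin-like site, was at 202, 107 and 102 FPKM in scramble, at 107, 96.6 and 96.6 after SiREV1#1 and at 281, 154 and 171 after SiREV1#2. It was higher in every pair of SiREV1#2 and lower in every pair of SiREV1#1, by 0.47 to 0.74 and by -0.91 to -0.08 as log2 ratios, although the groups overlap when replicate numbers are pooled. Its log2 fold change after SiREV1#2 was 0.73 without a block (SE 0.37, edgeR adjusted p = 1) and 0.61 with it (SE 0.19, edgeR adjusted p = 0.158). In replicates 2 and 3 only it was 0.55 in edgeR.

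PSMB6, the caspase-like subunit, was at 162, 34.3 and 28.6 FPKM in scramble, at 101, 39.1 and 30.5 after SiREV1#1 and at 187, 35.6 and 33.6 after SiREV1#2. The replicate 1 libraries of all 3 groups lay above the other 6. PSMB7, the trypsin-like subunit, was at 101, 115 and 112 FPKM in scramble, at 71.9, 109.9 and 111 after SiREV1#1 and at 119, 132 and 132 after SiREV1#2. Each SiREV1#2 value lay above the scramble libraries. PSMB2 had the lowest mean ratio of the beta genes after SiREV1#2 and was level with scramble there, at 36.3, 32.2 and 30.7 FPKM in scramble and 36.4, 31.3 and 30.5 after SiREV1#2, with 33.0, 37.5 and 34.9 after SiREV1#1. PSMB1, PSMB3 and PSMB4 ranged from 49.7 to 224 FPKM, with the lowest value of each in SiREV1#1 replicate 1.

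The inducible subunits were low and did not move as a unit. PSMB8 was at 4.08, 4.00 and 3.99 FPKM in scramble, at 1.61, 3.86 and 3.67 after SiREV1#1 and at 4.04, 4.83 and 5.10 after SiREV1#2. Exons of PSMB8 lie in part opposite those of PSMB9. PSMB9 was at 4.12, 11 and 10.1 FPKM in scramble, at 3.04, 13.5 and 11.9 after SiREV1#1 and at 6.26, 15.0 and 16.0 after SiREV1#2. It was higher in all 3 pairs of SiREV1#2, with a log2 fold change of 0.58 with the block (SE 0.21, edgeR adjusted p = 0.2). PSMB10, at 15.7, 17.7 and 15.9 FPKM in scramble, was at 10.8, 18.6 and 18.9 after SiREV1#1 and at 20.1, 16.6 and 17.4 after SiREV1#2, so its groups overlapped, and 27.5% of its 50-base stretches are found in another gene too.

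Set against the subunit each can replace, PSMB8 reached 1.44% to 4.00% of the FPKM of PSMB5 and PSMB10 12.6% to 17.1% of that of PSMB7. PSMB9 was at 2.54%, 3.02% and 3.34% of PSMB6 in the replicate 1 libraries and at 32.0% to 47.6% in replicates 2 and 3. In the plot of the catalytic subunits this appears as PSMB6 high and PSMB9 low in replicate 1 of every group.

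**Figure D3:**
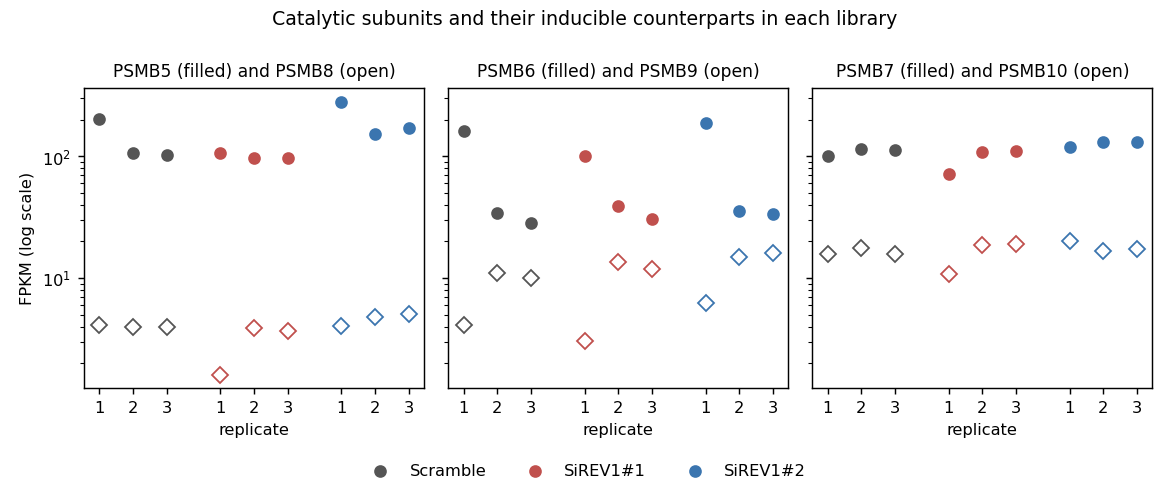
FPKM on a log axis of the catalytic subunits PSMB5, PSMB6 and PSMB7 (filled) and of the inducible subunits PSMB8, PSMB9 and PSMB10 (open) in each of the 9 libraries, by replicate number and group. PSMB6 is at 101 to 187 FPKM in replicate 1 and at 28.6 to 39.1 in replicates 2 and 3, where PSMB9 is higher than in replicate 1.

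Of the 6 ATPase genes, all were lower in SiREV1#1 replicate 1 (median log2 ratio -0.59), and 3 were lower in each of replicates 2 and 3. PSMC1 was at 106, 143 and 143 FPKM in scramble, at 58.5, 142 and 139.5 after SiREV1#1 and at 72.5, 91.2 and 93.5 after SiREV1#2. All SiREV1#2 libraries lay below all scramble libraries, with log2 ratios of -0.55, -0.64 and -0.60 in the 3 pairs. The log2 fold change was -0.52 with the block (SE 0.21, edgeR adjusted p = 0.252). In replicates 2 and 3 only it was -0.64 in edgeR. However, 75.8% of the exonic bases of PSMC1 lie opposite exons of NRDE2, and 20.2% of its 50-base stretches are found elsewhere.

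PSMC6 was at 45.1, 43.8 and 46.0 FPKM in scramble, at 20.8, 44.3 and 42.7 after SiREV1#1 and at 41.3, 49.2 and 50.7 after SiREV1#2, with a log2 ratio of -1.08 in SiREV1#1 replicate 1. PSMC5 was at 98.2, 125 and 122 FPKM in scramble, at 73.7, 127 and 127 after SiREV1#1 and at 87.1, 106 and 118 after SiREV1#2. PSMC2, at 39.9, 50 and 50.2 FPKM in scramble, had 24.4, 56.4 and 55.5 after SiREV1#1 and 35.4, 43.6 and 43.1 after SiREV1#2. The last 2 genes were lower in all 3 pairs of SiREV1#2, by less than 0.25 on the log2 scale. PSMC3 and PSMC4 lay between 51.5 and 178 FPKM, and PSMC4 was lower in all 3 pairs of SiREV1#1, by -0.32 to -0.20.

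In the base, PSMD1, PSMD2 and PSMD4 were lower in all 3 pairs of SiREV1#1. PSMD1, a scaffold of the base, was at 71.2, 50.3 and 48.5 FPKM in scramble, at 43.8, 39.5 and 38.2 after SiREV1#1 and at 68.9, 47.9 and 48.2 after SiREV1#2. The SiREV1#1 libraries lay below all others, and the log2 fold change was -0.40 without a block (SE 0.24, edgeR adjusted p = 0.728) and -0.38 with it (SE 0.12, edgeR adjusted p = 0.0813). In limma-trend on FPKM with the block it passed, at -0.46 (SE 0.11, limma adjusted p = 0.026). PSMD4, a ubiquitin receptor, was at 92.8, 66.6 and 65.9 FPKM in scramble, at 65.0, 61.8 and 58.4 after SiREV1#1 and at 84.5, 41.1 and 45.5 after SiREV1#2. Its SiREV1#2 values were low in replicates 2 and 3 and within the scramble range in replicate 1, as for PSMA2, and the log2 fold change with the block was -0.36 (SE 0.20, edgeR adjusted p = 0.395). In replicates 2 and 3 only, the edgeR log2 fold change of PSMD4 after SiREV1#2 was -0.68. PSMD2 ranged from 60.5 to 94.0 FPKM.

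In the lid, PSMD12 differed between the siRNAs in edgeR with the block, and PSMD11 missed the threshold there (adjusted p = 0.0738) and passed in limma-trend with the block (adjusted p = 0.0131). PSMD12, on chromosome 17 (67337916 to 67366627, minus strand), was at 21.1, 29.2 and 31.5 FPKM in scramble, at 12.4, 20.7 and 20.4 after SiREV1#1 and at 21.1, 32.7 and 32.1 after SiREV1#2. All SiREV1#1 libraries lay below all scramble libraries, and SiREV1#2 was level with scramble in replicate 1 and slightly above it in the others. The log2 fold change after SiREV1#1 was -0.55 without a block (SE 0.27, edgeR adjusted p = 0.598) and -0.55 with it (SE 0.12, edgeR adjusted p = 0.0227), and in replicates 2 and 3 only it was -0.55 (edgeR adjusted p = 2.61e-05). PSMD11, on chromosome 17 (32444261 to 32483318), was at 43.0, 39.4 and 37.6 FPKM in scramble, at 42.0, 37.8 and 37.6 after SiREV1#1 and at 34.9, 11.1 and 11 after SiREV1#2. SiREV1#1 matched scramble, and SiREV1#2 lay below both in every replicate number, by log2 ratios of -0.29, -1.75 and -1.68. With the block its log2 fold change after SiREV1#2 was -0.98 from counts (SE 0.34, edgeR adjusted p = 0.179) and -1.24 from FPKM (SE 0.29, limma adjusted p = 0.0302), and in replicates 2 and 3 only it was -1.79 (SE 0.09, edgeR adjusted p = 3.26e-08).

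Of the other lid genes, PSMD14, the deubiquitinase, was at 72.1, 89.5 and 92.3 FPKM in scramble, at 38.0, 89.3 and 91.5 after SiREV1#1 and at 68.3, 88.2 and 88.6 after SiREV1#2, so that it departed from scramble by more than 0.1 on the log2 scale in 1 library, SiREV1#1 replicate 1. PSMD7 was higher in all 6 pairs, at 92.3, 117 and 115 FPKM in scramble, 96.7, 126 and 119 after SiREV1#1 and 103, 130.3 and 128 after SiREV1#2, with a mean log2 ratio of 0.07 and 0.15. PSMD13 was lower in all 6 pairs, at 66.1, 49.1 and 44.0 FPKM in scramble, 37.2, 40.3 and 38.1 after SiREV1#1 and 56.9, 34.8 and 35.8 after SiREV1#2, with a mean log2 ratio of -0.43 and -0.33. Neither passed in edgeR with or without the block. Of the exonic bases of PSMD7, 30.7% lie opposite AC009120.2, and 19 of the 46 members have exons opposite another gene. PSMD8 was higher in SiREV1#1 replicate 1 (248 FPKM) than in any other library (144 to 187), against the direction of most members there. PSMD3 and PSMD6 ranged from 35.2 to 103 FPKM.

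**Figure D4:**
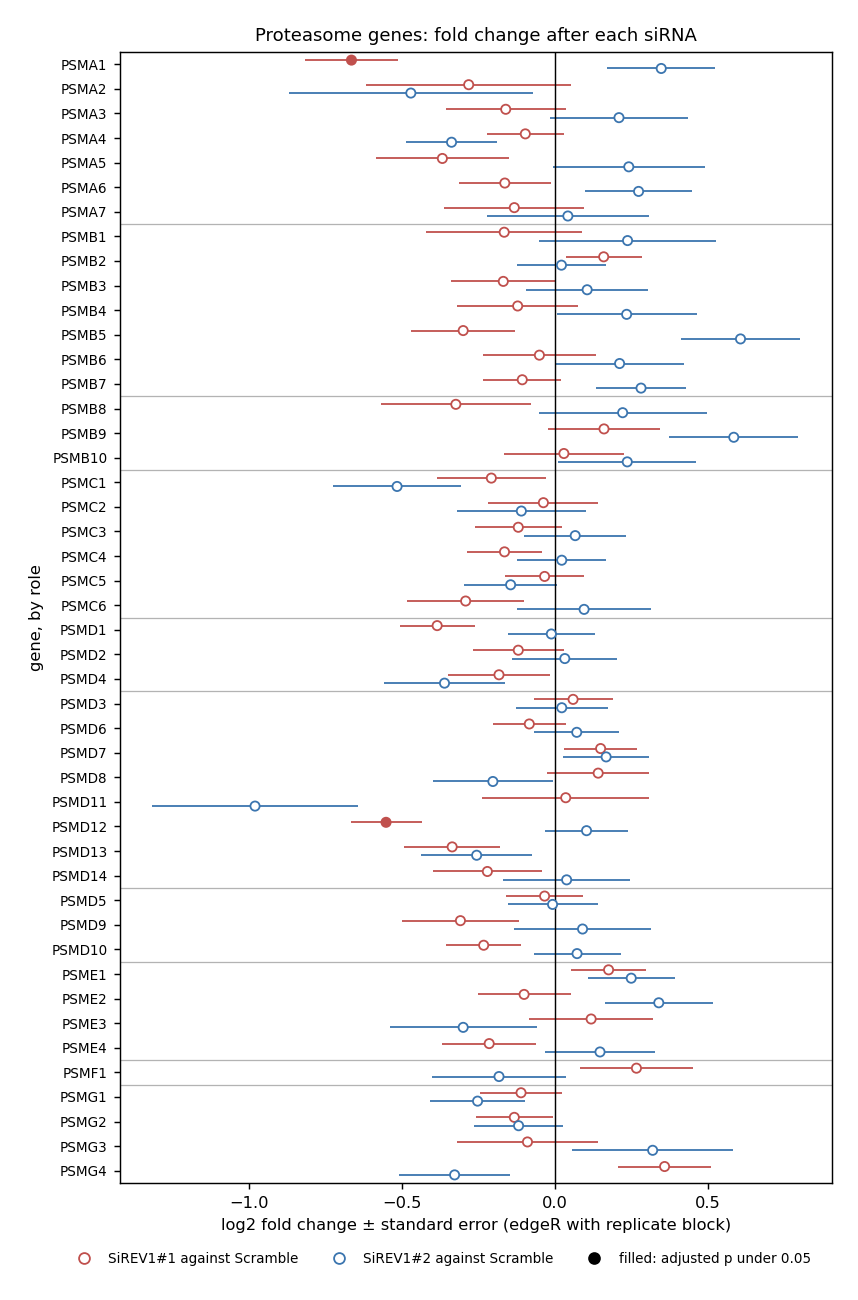
Log2 fold change from edgeR with the replicate block, for SiREV1#1 (red) and SiREV1#2 (blue) against scramble, for 46 genes grouped by role. Bars are standard errors worked out from the F statistic, and filled points have an adjusted p under 0.05. Filled points are PSMA1 and PSMD12 after SiREV1#1.

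The assembly chaperones of the base were lower in all 3 pairs of SiREV1#1. PSMD9 was at 16.5, 22.1 and 22.5 FPKM in scramble, at 9.12, 20.8 and 18.4 after SiREV1#1 and at 19.5, 19.4 and 20.2 after SiREV1#2. PSMD5 and PSMD10 stayed between 15.2 and 38.4 FPKM, and PSMD5 had the smallest spread over libraries of all members, with an SD of 0.07 on the log2(FPKM + 1) scale.

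Among the chaperones of the core, PSMG4 was at 10.6, 14.6 and 14 FPKM in scramble, at 10.6, 22.2 and 18.5 after SiREV1#1 and at 11.2, 11.9 and 13.7 after SiREV1#2. Replicates 2 and 3 of SiREV1#1 were its highest libraries. PSMG3 had 32.7, 48.6 and 40.4 FPKM in scramble, 17.4, 52.3 and 50 after SiREV1#1 and 42.8, 52.0 and 60.7 after SiREV1#2. PSMG2 was at 32.1, 53.6 and 52.5 FPKM in scramble, at 24.6, 50.7 and 47.9 after SiREV1#1 and at 28.7, 45.4 and 47.5 after SiREV1#2, lower in all 6 pairs. PSMG1 was also lower in all 6 pairs, at 37.5, 33.7 and 32.2 FPKM in scramble, 26.6, 32.9 and 31.1 after SiREV1#1 and 31.4, 26.8 and 25.8 after SiREV1#2. None of the 4 passed against scramble with or without the block.

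The activators did not share a direction. PSME1 and PSME2, which form the interferon-inducible cap, were highest after SiREV1#2. PSME1 was at 83.1, 86.1 and 77.9 FPKM in scramble, at 89.3, 88.2 and 86.9 after SiREV1#1 and at 105, 92.6 and 97.7 after SiREV1#2, and the 3 groups did not overlap. Its log2 fold change was 0.30 after SiREV1#2 (SE 0.18, edgeR adjusted p = 1 without a block) and 0.18 after SiREV1#1 (SE 0.16, adjusted p = 0.875 from the same edgeR fit). PSME2 was at 120.3, 129.6 and 122 FPKM in scramble, at 76.1, 132 and 128 after SiREV1#1 and at 144, 155 and 169 after SiREV1#2.

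PSME3, the nuclear cap, was at 69.7, 90.4 and 87.9 FPKM in scramble, at 98.3, 75.8 and 78.9 after SiREV1#1 and at 58.0, 75.5 and 74.9 after SiREV1#2, lower in all 3 pairs of SiREV1#2 by log2 ratios of -0.26 to -0.23. PSME4 was at 18.6, 19.9 and 23.2 FPKM in scramble, at 14.2, 18.1 and 18.1 after SiREV1#1 and at 16.6, 27.5 and 25.7 after SiREV1#2. PSMF1, the inhibitor, was at 58.9, 69.3 and 65.7 FPKM in scramble, at 95.5, 65.3 and 65.1 after SiREV1#1 and at 59.9, 55.9 and 59.4 after SiREV1#2. PSMF1 and PSME3, like PSMD8, had their highest value in SiREV1#1 replicate 1, where 40 of the 46 members were below scramble.

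The siRNAs were then compared directly. Without a block 0 of 46 members differed where 0.676% of all genes did, with 3 members and 1762 genes at an unadjusted p under 0.05 in edgeR. With the block 4 members differed, where 17.6% of all genes did. PSMA1, PSMD12 and PSMB5 were lower after SiREV1#1 than after SiREV1#2, by log2 differences of -1.01 (SE 0.18, edgeR adjusted p = 0.00957), -0.66 (SE 0.14, edgeR adjusted p = 0.0163) and -0.91 (SE 0.20, edgeR adjusted p = 0.0198). PSMG4 was higher, by 0.69 (SE 0.18, edgeR adjusted p = 0.0381), but in limma-trend on FPKM its difference was 0.39 (SE 0.16, limma adjusted p = 0.0911).

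In limma-trend with the block 12 members differed, where 36.5% of genes did. PSMD11 was higher after SiREV1#1 there, and PSMA1, PSMA6, PSMB5, PSMB7, PSMB8, PSMB9, PSMC4, PSMD1, PSMD12, PSME2 and PSME4 were lower. With replicates 2 and 3 only, 23 members differed in edgeR, 13 higher and 10 lower after SiREV1#1, where 54.4% of genes did. The median of the PSMA genes in this contrast was -0.37 and of the PSMB genes -0.37 with the block, against -0.06 for the PSMC genes, -0.12 for the PSMD genes, -0.22 for the PSME genes and 0.001 over all genes tested. In replicates 2 and 3 only, the medians of PSMA and PSMB were 0.01 and -0.02.

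Replicate 1 was compared with replicates 2 and 3 in an edgeR fit with a term for the group. The split follows the replicate numbers of the labels and was known to be large, so its p-values describe these libraries. With TMM scaling 24 of 46 members differed, 8 higher and 16 lower in replicate 1, where 61.9% of all genes differed. The share of members was below that of all genes. By FPKM, 43.5% of members were lower in replicate 1 in all 3 groups, against 42.2% of genes with a mean FPKM over 1. In turn 17.4% of members were higher in all 3 groups, against 29.8% of those genes. With upper-quartile scaling, which moves the median of all genes from 0.02 to 0.12 on the log2 scale, 19 members differed, 9 higher and 10 lower. The share of all genes that differed under that scaling is not given here. No called member changed sign under another scaling or tool.

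The called members are given here by family, and whether the families differ was not tested. All 4 called PSMC genes were lower in replicate 1 (3 with upper-quartile scaling), while the called PSMD genes were 5 higher and 5 lower (5 and 3). PSMB6 was higher in replicate 1 by 2.15 on the log2 scale (SE 0.16, edgeR adjusted p = 8.58e-06). The other called core genes that were higher were PSMB5, by 0.67 (SE 0.14, edgeR adjusted p = 0.00225), and PSMA3, by 0.78 (SE 0.16, edgeR adjusted p = 0.00257). PSMA3 was at 113, 56.7 and 56.0 FPKM in scramble and at 128, 59.0 and 63.2 after SiREV1#2, but at 61.1, 59.8 and 57.8 after SiREV1#1, where the shift is missing. PSMD1 was higher by 0.47 and PSMD4 by 0.57 (adjusted p = 0.00188 and 0.00564 from edgeR). PSMD11 was called as well, at 0.63 (SE 0.24, edgeR adjusted p = 0.0475), with levels that differed little by replicate number outside SiREV1#2.

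PSMB9 was lower in replicate 1 by -1.48 (SE 0.16, edgeR adjusted p = 6.21e-05), PSMG2 by -0.78 (SE 0.10, edgeR adjusted p = 0.00017) and PSMD12 by -0.56 (SE 0.09, edgeR adjusted p = 0.000549). PSMA6, PSMB7, PSMC1, PSMC2, PSMC3, PSMC5, PSMD6, PSMD7, PSMD9, PSMD14, PSME4, PSMG3 and PSMG4 were also lower, by -0.78 to -0.26.

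**Figure D5:**
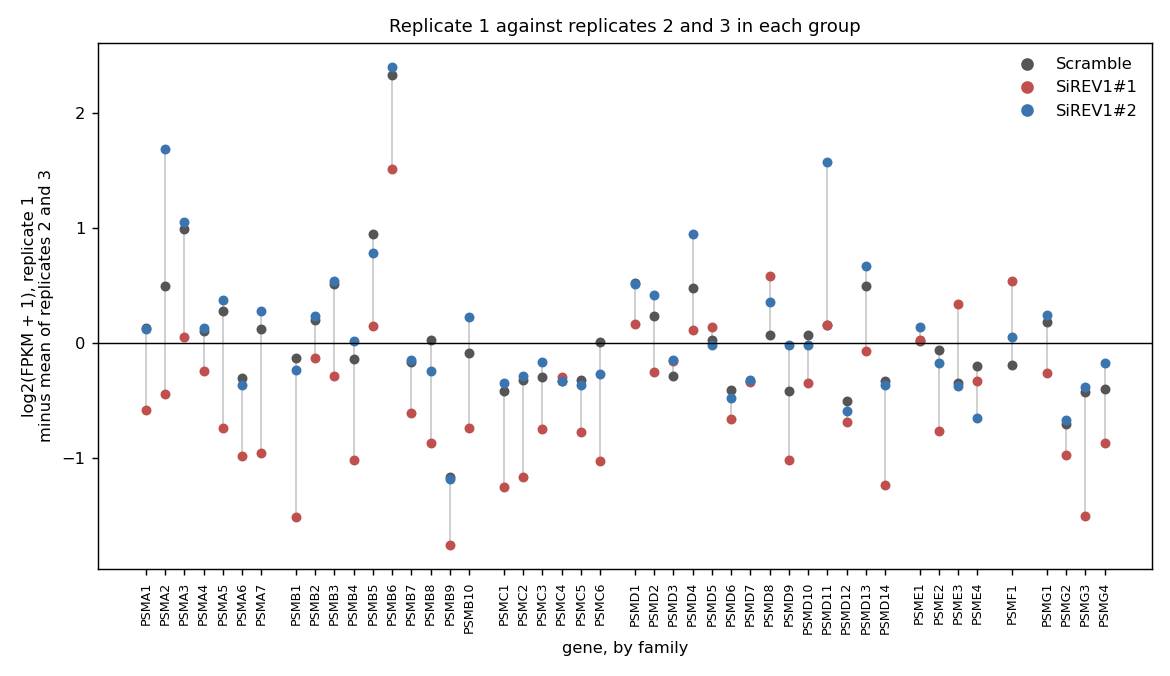
Difference in log2(FPKM + 1) between replicate 1 and the mean of replicates 2 and 3, for 46 genes ordered by family, in scramble (grey), SiREV1#1 (red) and SiREV1#2 (blue), with lines joining the groups of a gene. PSMB6 lies at 1.52 to 2.40 and PSMB9 at -1.76 to -1.17 in all groups, and the red points of most genes lie lowest.

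On the log2(FPKM + 1) scale, replicate 1 differed from the mean of the other replicates by more than 1 at 2 members in scramble, 10 in SiREV1#1 and 5 in SiREV1#2. Those are 4.35%, 21.7% and 10.9% of members against 16.6%, 20.3% and 23% of genes with a mean FPKM over 1. In scramble the 2 genes were PSMB6 and PSMB9, and PSMA3 lay just inside that limit, with a 2.01-fold difference in FPKM itself. Between replicates 2 and 3 the median absolute difference over the members was 0.07, 0.05 and 0.05 on the log2(FPKM + 1) scale in scramble, SiREV1#1 and SiREV1#2. In the plot of replicate 1 against the others, scramble and SiREV1#2 lie close to each other at most genes, with PSMA2 and PSMD11 apart.

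Over the 9 libraries, 26 of 46 members had a Pearson correlation over 0.5 with the mean of the other members on the log2(FPKM + 1) scale. PSMA7 (0.96), PSMB4 (0.93), PSMD9 (0.92) and PSMC6 (0.90) followed it most closely. These members belong to the alpha ring, the beta ring, the base chaperones and the ATPases. PSMF1 (-0.86), PSMD8 (-0.69), PSME3 (-0.62), PSMB6 (-0.29), PSMD11 (-0.21) and PSMD5 (-0.16) had negative values. The points share depth and replicate number, and the mean itself was at -0.44 in SiREV1#1 replicate 1 and between -0.002 and 0.11 in the others, so these values describe that library above all.

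Other genes of the pathway were taken from lists. Without a block, 0 genes passed in edgeR after either siRNA or between them in each of 5 lists, which held 14 proteasome partners, 7 shuttle factors including VCP, 4 regulators of proteasome transcription, 6 ubiquitin and E1 genes and 11 genes of class I antigen processing. With the block, ADRM1 among the partners, a ubiquitin receptor of the base, fell after SiREV1#2 by -1.19 on the log2 scale (SE 0.21, edgeR adjusted p = 0.0331). ADRM1 was at 92.5, 119.9 and 105 FPKM in scramble, at 89.3, 98.5 and 88.4 after SiREV1#1 and at 52.8, 39.2 and 44.3 after SiREV1#2. The SiREV1#2 libraries lay below all others. Among the regulators, NFE2L1 rose after SiREV1#1 by 0.49 with the block (SE 0.12, edgeR adjusted p = 0.0371) and was 0.50 without it (SE 0.15, edgeR adjusted p = 0.292). NFE2L1 was at 45.1, 44.9 and 45.9 FPKM in scramble, at 64.5, 58.4 and 62.2 after SiREV1#1 and at 41.8, 44.4 and 45.5 after SiREV1#2, so SiREV1#1 lay above both other groups in every library. Its relative NFE2L2 was at 31.8 to 55.8 FPKM in replicate 1 and at 116 to 147 in replicates 2 and 3.

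Between the siRNAs, ADRM1, NFE2L1, the ubiquitin-activating enzyme UBA6, HLA-B and IRF1 differed with the block, which is 1 of 14 partners, 1 of 4 regulators, 1 of 6 ubiquitin and E1 genes and 2 of 11 class I genes, where 17.6% of all genes differed. None of the shuttle factors passed in these 3 comparisons with the block. In replicates 2 and 3 only, with 1 SiREV1#2 library, the median log2 difference between the siRNAs was -0.30 over the class I genes. It was -0.05 over the partners and over the shuttle factors, 0.05 over the regulators and 0.02 over the ubiquitin and E1 genes. Against scramble the class I median was 0.04 after SiREV1#1 and 0.29 after SiREV1#2 in that fit. IRF1, a known activator of the inducible subunit genes, was at 8.33, 89.9 and 91.8 FPKM in scramble, at 8.35, 71.0 and 67.6 after SiREV1#1 and at 13.3, 147 and 147 after SiREV1#2. It was thus low in replicate 1 of every group, as PSMB9 was, and whether the level of either depends on the other was not tested.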

How the data were processed

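RNA of A549 cells was sequenced by the study on a BGISEQ-500 after oligo(dT) selection. The authors deposited FPKM values for 9 libraries and estimated counts per gene, of which 42.6% were not whole numbers. Per the submitters' processing notes, StringTie 1.3.3b and the build hg38 were used, while the aligner, the counting of strand and the way counts were estimated are not given in the sources used here. Estimated counts were rounded. For SiREV1#2, the counts given for replicate 3 repeat those of replicate 2 in 100% of genes and were not used, so that replicate enters through its FPKM only.

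Groups were taken from the labels. Genes passing edgeR's filter on low counts were fitted in edgeR 4.0.16 (R 4.3.3) with TMM scaling and the quasi-likelihood test, first without a block, and were called at a Benjamini-Hochberg adjusted p under 0.05 over all genes. Replicate 1 was compared with replicates 2 and 3 by a term beside the group. limma 3.58.1 was fitted to log2(FPKM + 1) of genes with a mean FPKM over 1, so fold changes of low genes are understated there. Other settings were DESeq2 1.42.0, upper-quartile scaling, no filter, a pseudocount of 0.1, a threshold of 0.01, the replicate number as a block, and leaving out each library. Fits were tested on simulated data. Same-numbered libraries deviated together from their group means, with correlations of 0.734 to 0.929 over 9 pairs and 11429 genes, so blocked values are given beside results they change. The correlation of the difference between replicates 2 and 3 was -0.218 to 0.175 between groups, so the pairing rests on replicate 1. The depth limits low genes most, and no member was among genes left out.

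Members with values in every library were those called against scramble or between the siRNAs, with or without the block. Others had the highest or lowest mean pair ratio of their family for an siRNA. Further ones were among the 3 smallest p-values in a direction of a comparison. The catalytic and inducible beta genes, PSMD4, PSMD14 and the activators were given whatever their values. The remaining members are given by their range, among them PSMC3 and PSMD6, which were called for replicate 1 against the others. The members, lists and tests were chosen with earlier results of these data known. PSMA8 and PSMB11 were not analysed here. Gene positions are of GENCODE 29 on GRCh38. Python 3.11.15, numpy 2.4.6, pandas 2.3.3 and matplotlib 3.10.9 were used for ratios and plots.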

Additional observations from a re-analysis of the deposited data

Results flagged for a closer look

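For 7 members the siRNAs either differed in the direct contrast of SiREV1#1 with SiREV1#2, with the replicate block in edgeR, or had opposite signs in every pair. PSMA1 (log2 difference -1.012, adjusted p = 0.00957), PSMB5 (-0.906, adjusted p = 0.0198), PSMD12 (-0.655, adjusted p = 0.0163) and PSMG4 (0.686, adjusted p = 0.0381) passed. PSMA5 (-0.609, adjusted p = 0.141), PSMA6 (-0.438, adjusted p = 0.129) and PSMB7 (-0.389, adjusted p = 0.114) did not pass in edgeR. All of these except PSMG4 were lower than scramble in every pair of SiREV1#1 and higher in every pair of SiREV1#2. The share of all genes with such opposite signs was not counted. Of genes with a mean FPKM over 1, 35.5% were lower in every pair of SiREV1#1 and 25.9% higher in every pair of SiREV1#2. Some ratios were near 0, such as -0.003 for PSMA6 in SiREV1#1 replicate 2 and -0.014 for PSMB7 in replicate 3. Without the block none of the 7 passed in edgeR, with adjusted p-values from 0.0802 for PSMA1 to 0.793 for PSMA6. The siRNA groups share the scramble libraries. In replicates 2 and 3 only, edgeR gave PSMA1 -0.79 (adjusted p = 1.87e-06), PSMB5 -0.65 (adjusted p = 1.77e-05), PSMD12 -0.66 (adjusted p = 1.59e-05) and PSMG4 0.82 (adjusted p = 0.000182). In that edgeR fit PSMA6 was at -0.24 (adjusted p = 0.0123), PSMB7 at -0.25 (adjusted p = 0.0135) and PSMA5 at -0.21 (adjusted p = 0.0619), where 54.4% of all genes passed. The 7 genes were chosen on data that include these libraries, so this fit adds no independent support.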

How the results depend on the processing

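Without a block, 0 members were called against scramble for either siRNA and between them. The same held with upper-quartile scaling, with no filter, at an adjusted p under 0.01 and without each of the 8 counted libraries (range 0 to 0). For SiREV1#1 against scramble the replicate block called 2 members (12.3% of all genes), a term for replicate 1 called 3 (19.2%), DESeq2 1 (4.01%) and limma-trend with the block 3 (19.7%). For SiREV1#2 against scramble limma-trend with the block called 1 (11.3%). Between the siRNAs the block called 4 (17.6%), the term for replicate 1 called 7 (27.1%), DESeq2 1 (6.18%), limma-trend 1 at each pseudocount (5.21% and 5.30%), and limma-trend with the block 12 (36.5%). Among settings added after the data were seen, replicates 2 and 3 only gave 11, 19 and 23 in edgeR (46.5%, 38.4% and 54.4% of all genes) and 14, 25 and 28 in limma-trend (56.8%, 55.4% and 70.2%) for these comparisons in turn, and limma-trend with a term for replicate 1 gave 3, 5 and 13 (26.8%, 17.9% and 42.5%). The cause was not tested. For replicate 1 against the others 14 were called at an adjusted p under 0.01, and the count ran from 16 to 27 when a library was left out. The share of all genes at these settings is not given here, and in the main fit it was 61.9%, so these counts show only how the calls vary. PSMF1 after SiREV1#1 changed sign in replicates 2 and 3 only, to -0.018 in edgeR and -0.048 in limma-trend. Of the calls in replicate 1 against the others, PSMD11 was lost with no filter, and PSMB7, PSMC3, PSMD7, PSMD9, PSME4 and PSMG4 with upper-quartile scaling. Beyond the calls given with the block in the report, the pairing changed no other call of a member or listed pathway gene. The fit of all 9 count columns as deposited was not run, since 1 repeats another library.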
